A study of Mus musculus with 17 samples.

Results

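The 156 genes described here build the mitochondrial ribosome and the respiratory chain. They were chosen by symbol, as the deposited start sites whose RefSeq transcript belongs to a gene named Mrpl or Mrps with a number (proteins of the large and small subunit of the mitochondrial ribosome), Ndufa, Ndufb, Ndufc, Ndufs or Ndufv (complex I), Uqcr (complex III), Cox4 to Cox8 (complex IV) or Atp5 (ATP synthase). The rule found 175 table rows at 161 distinct start sites, and these 156 genes stand among 21135 named genes in all. Of them, 148 are called general members below, namely 49 Mrpl, 26 Mrps, 37 Nduf, 8 Uqcr, 11 Cox and 17 Atp5 genes. The other 8 are paralogs known as tissue-restricted: Cox4i2, Cox6a2, Cox6b2, Cox7a1, Cox7b2, Cox8b, Cox8c and Ndufa4l2. One of the general members, Ndufs5-ps, is a pseudogene that the symbol rule takes in.

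Almost all proteins of the mitochondrial ribosome and most subunits of the respiratory chain are encoded in the nucleus, made in the cytosol and imported. The respiratory complexes pass electrons along the inner membrane and drive ATP synthase, and ribosomes inside the organelle make the few subunits encoded in mitochondrial DNA. In most tissues these genes are transcribed from CpG-rich promoters, many of which carry sites for Nrf1, ETS factors such as Gabpa, Yy1 and Sp1. Several complex IV subunits exist as paired isoforms, 1 general and 1 made mainly in heart and skeletal muscle, in lung or in testis, and sperm keep a sheath of mitochondria in the midpiece.

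The study mapped chromatin with micrococcal nuclease (MNase), which cuts accessible DNA between nucleosomes, followed by paired-end sequencing. Epididymal and vas deferens sperm of C57/B6J mice aged 10 weeks, crosslinked with 1% formaldehyde for 15 min, gave 1 supernatant library at the standard digestion, 4 libraries without separation (unspun; 0.5, 2, 10 and 50 units of MNase), 4 supernatant libraries and 4 pellet libraries (1, 5, 20 and 100 units each). The comparison with ES cells used the supernatant of E14 cells, 1 embryonic stem cell line of 129 X Ola background grown without feeders in serum and LIF. Enzyme per cell differed between the ES cell and the standard sperm digestion. Each group held 1 library, so no test between groups was possible, and the sources used here do not give the number of animals behind a sperm library. MNase signal holds no expression level against which the cell labels could be checked.

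The pileup tables (ES cells, standard sperm, unspun sperm) hold a pileup of nucleosome-sized fragments in 20 bp bins within 2000 bp of a start site. The length range of the fragments is given in the table names. Isolated signal in the unspun libraries summed to a median of 22.0, which was taken as a single fragment. Fragments of that length would add less if each raised the bins it covers once, and the reason was not tested. Fragment numbers from these tables are thus in units of isolated signal. Dividing by 22.0 gave 22.1 fragments per promoter (1000 bp to each side of the start site) in standard sperm and 33.0 in ES cells, but only 0.677 to 0.835 in the unspun libraries. The count tables of the supernatant and pellet series held 0.138 to 0.884 fragments per promoter. Isolated signal was 2 or more in every bin it covered in 5.70% of cases in standard sperm and 31.8% in ES cells. Whether the fragments stacked there are copies of each other was not tested. Because stacked fragments may not be independent, intervals were computed on stacks, meaning isolated clusters of signal. A stack averaged 1.42 fragments in standard sperm and 2.31 in ES cells. All intervals are 95% exact binomial intervals and cover counting error only, not the spread between digestions or animals.

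Promoters of the general members carried nearly as many nucleosome-sized fragments as the average promoter in sperm and slightly more than average in ES cells. Their mean level, relative to the mean of all promoters in the same library, was 1.00 in standard sperm and 1.10 in ES cells. Together they held 0.632% of all promoter fragments in sperm and 0.695% in ES cells, a log2 ratio of -0.14 (interval -0.22 to -0.05). Over single genes, the median log2 ratio (sperm over ES cells) was -0.12 for the general members, -0.07 for all genes and -0.25 for genes with a high-CpG promoter. The authors placed 136 of the 148 general members in that high-CpG class (HCP in the tables), where the level was 0.786 in sperm and 0.927 in ES cells. All genes together had a level of 1.02 in sperm and 1.01 in ES cells. In the ratio of sperm to ES cells, the general members thus stood between all genes and their own CpG class. In ES cells alone their level was above both. When shares were scaled to high-CpG promoters alone, which lifts every log2 ratio by the same 0.24, the pooled ratio of the general members was 0.10 and their median 0.12.

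Close to the start site the general members differed more from other high-CpG promoters. Within 200 bp to each side, their level was 0.830 in sperm and 0.777 in ES cells (log2 ratio 0.10, interval -0.17 to 0.36). High-CpG genes as a whole had a level of 0.497 in sperm and 0.627 in ES cells there (log2 ratio -0.34, interval -0.37 to -0.30). Over single genes, after 1 fragment was added, the median log2 ratio in that window was 0.27 for the general members, 0.20 for all genes and 0.13 for high-CpG genes. Counts are low there, and a promoter with no fragment in either library, such as Atp5j, scores 0.67. The added fragment pulls the medians towards that value, so they do not show a higher share in sperm. In sperm the 200 bp upstream of the start site held no fragment at 17 of 148 general members (11.5%), against 26.2% of high-CpG genes and 19.4% of all genes. In ES cells it held none at 23 general members (15.5%), against 19.3% of high-CpG genes and 15.3% of all genes. The 300 bp downstream were empty at 16 general members in sperm (10.8%) and 10 in ES cells (6.76%), against 33.1% of high-CpG genes in sperm and 19.4% in ES cells, and 23.2% of all genes in sperm and 15.7% in ES cells. Empty windows were fewer among the members than in their CpG class in both libraries, and upstream in ES cells their share was close to that of all genes.

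The shape of the depleted region differed between the libraries. Relative to flanks 1000 to 2000 bp away, the 200 bp upstream of general members averaged 0.457 in sperm (interval 0.389 to 0.535) and 0.375 in ES cells (0.307 to 0.454). The 300 bp downstream averaged 0.245 in sperm (0.205 to 0.292) and 0.446 in ES cells (0.384 to 0.515). The deepest point lay 150 bp downstream of the start site in sperm, at 0.207 of the flanks, and 30 bp upstream of it in ES cells, at 0.247. Other high-CpG promoters had the same downstream difference, with 0.169 in sperm and 0.317 in ES cells, but upstream they held 0.293 in sperm and 0.347 in ES cells. The members' upstream intervals in the 2 libraries overlap, and the Mrps genes had nearly equal values there, 0.337 in sperm and 0.349 in ES cells. Assembly factors of the complexes, which are not members, held 0.364 upstream in sperm and 0.338 in ES cells.

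**Figure D1:**
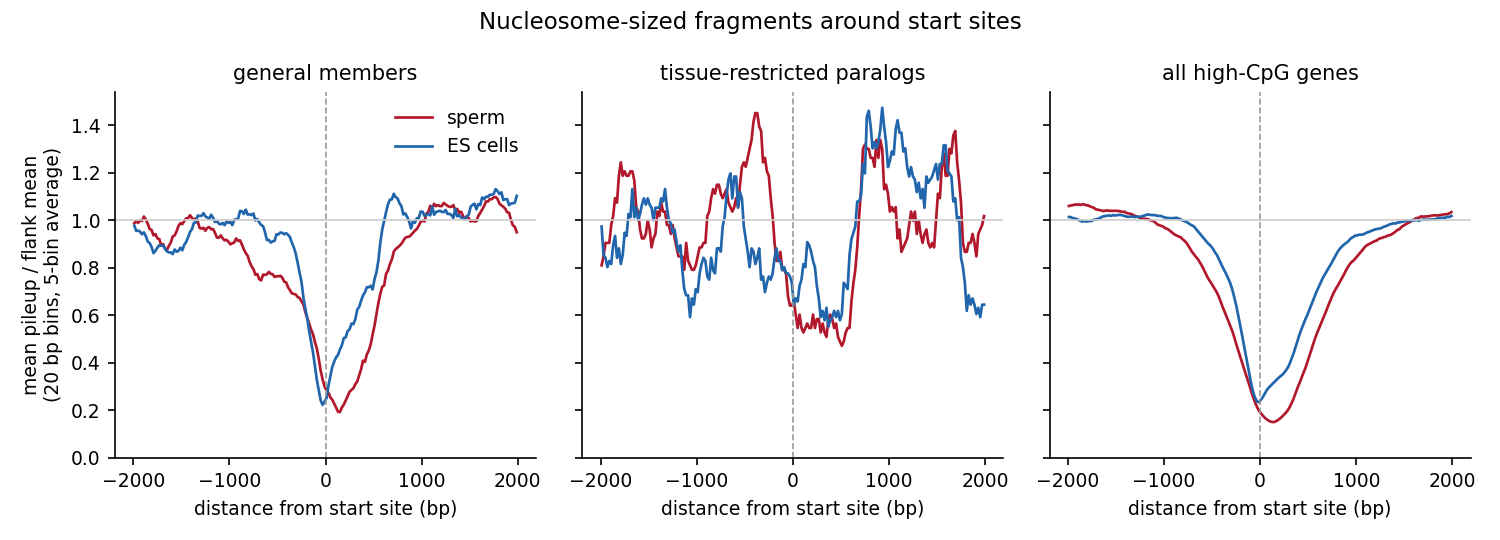
Mean pileup of nucleosome-sized fragments by distance from the start site (bp), divided by the mean of the flanks, in standard sperm (red) and ES cells (blue), for the general members, the tissue-restricted paralogs and all high-CpG genes. The general members' trough reaches 0.207 at 150 bp downstream in sperm and 0.247 at 30 bp upstream in ES cells, whereas the mean of the 8 restricted paralogs shows no such deep trough in either library.

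The 6 families did not have the same balance, although their intervals overlap. Pooled log2 ratios of sperm to ES cells were -0.18 for the Mrpl genes (interval -0.33 to -0.04), -0.19 for the Mrps genes (-0.39 to 0.01) and -0.17 for the Nduf genes (-0.34 to -0.01). They were -0.04 for Uqcr (-0.39 to 0.31), -0.02 for Cox (-0.34 to 0.29) and 0.05 for Atp5 (-0.22 to 0.31). Of the 37 Nduf genes, 26 had a lower share in sperm, against 28 of 49 Mrpl, 16 of 26 Mrps, 4 of 8 Uqcr, 5 of 11 Cox and 8 of 17 Atp5 genes. The share with a lower value was 70.3% in the Nduf family, 54.1% over all genes and 65.7% over high-CpG genes. The median promoter held 21.2 fragments in sperm and 28.6 in ES cells among Atp5 genes, against 21.8 in sperm and 39.8 in ES cells among Nduf genes. Family medians ran between 17.7 (Cox) and 23.6 (Uqcr) fragments in sperm and between 28.6 (Atp5) and 41.4 (Uqcr) in ES cells. Relative to the average promoter, family levels ran between 0.960 and 1.15 in sperm and between 0.928 and 1.18 in ES cells. Across the 148 general members the Spearman correlation of fragments in sperm and ES cells was 0.53, beside 0.54 across high-CpG genes, and the points share 2 libraries and the same sequence composition.

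**Figure D2:**
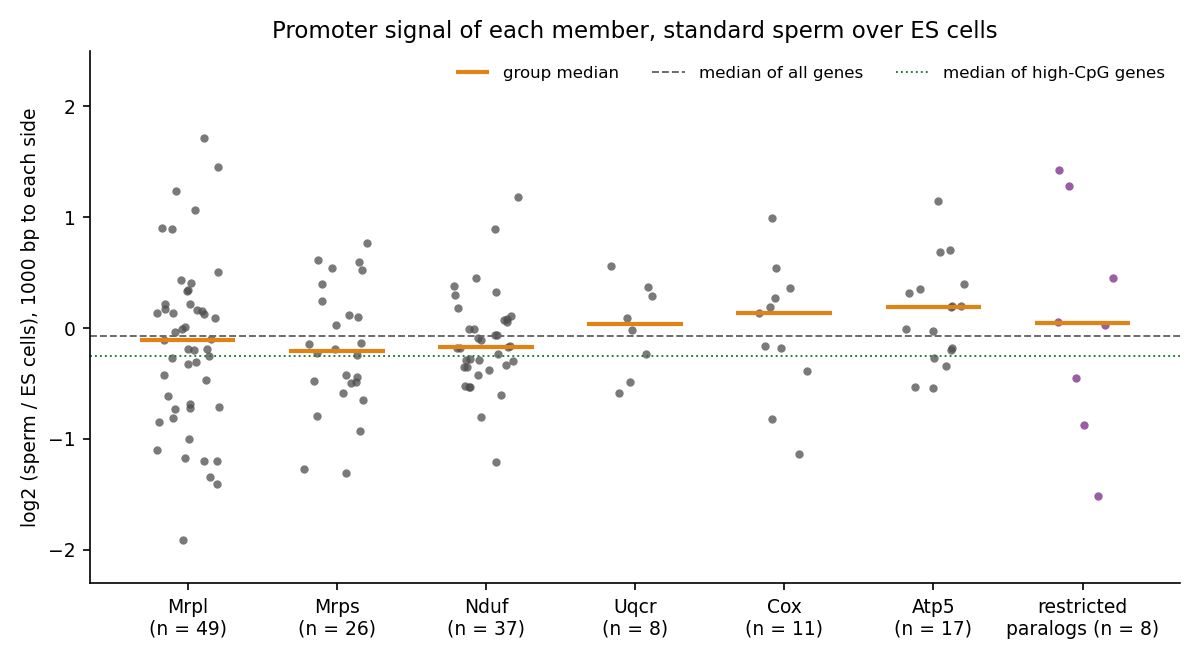
Log2 ratio of standard sperm to ES cells for each member's promoter (1000 bp to each side of the start site), 1 point per gene, with the family median in orange and the medians of all genes and of high-CpG genes as broken lines. Medians run between -0.21 (Mrps) and 0.19 (Atp5), and single genes range from -1.91 (Mrpl14) to 1.71 (Mrpl19).

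Of the 153 members with at least 20 fragments in the 2 libraries together, 12 (7.84%) were at least 2-fold lower in sperm, and the background over all genes was 8.58%. At least 2-fold higher in sperm were 8 members (5.23%), with a background of 6.52%. For high-CpG genes alone those backgrounds were 11.7% and 2.74%. Counting intervals lay wholly below 0 for 10 members (6.54%), with a background of 4.32% over all genes and 5.6% over high-CpG genes, and wholly above 0 for 4 members (2.61%), with backgrounds of 6.1% and 1.11%. Of the 153, 90 (58.8%) had a lower share in sperm, with backgrounds of 55.0% and 65.9%. The members' shares past 2-fold are near those of all genes. Fewer than 20 fragments were found at 3 members. Mrpl41 held 7.14 in sperm and 5.50 in ES cells, Ndufa1 8.36 in sperm and 10.4 in ES cells, and Ndufa13 6.91 in sperm and 9.95 in ES cells.

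Among general members with at least 20 fragments, large-subunit proteins of the mitochondrial ribosome supplied 6 of the 10 with the lowest ratio. They make up 49 of the 148 general members. Mrpl14 (start site at position 45823320 of chromosome 17, mm9) had 4.55 fragments in sperm and 30.0 in ES cells, a log2 ratio of -1.91 (interval -4.51 to -0.33). Its start site lies 153 bp from that of Tmem63b, so part of the window belongs to both genes. Mrpl10, whose start site lies 216 bp from that of Lrrc46, had 10.8 fragments in sperm and 45.6 in ES cells (log2 ratio -1.40). Mrpl54 had 15.2 fragments in sperm and 60.5 in ES cells (log2 ratio -1.35). Mrpl12, which is known to bind the mitochondrial RNA polymerase, had 11.5 fragments in sperm and 42.0 in ES cells (log2 ratio -1.20). Mrpl58, a peptidyl-tRNA hydrolase that frees stalled mitochondrial ribosomes, had 25.3 fragments in sperm and 88.9 in ES cells (log2 ratio -1.20, interval -2.14 to -0.39). Mrpl23 had 8.86 fragments in sperm and 32.0 in ES cells, and here the interval includes 0 (-2.91 to 0.18). The 300 bp downstream of the Mrpl58 start site were nearly empty in sperm, with 0.0909 fragments there and 3.32 in ES cells.

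The other low members belong to the small subunit and to complexes I and IV. Mrps25 had 14.7 fragments in sperm and 55.6 in ES cells (log2 ratio -1.27, interval -2.55 to -0.24). Mrps26 had 7.05 fragments in sperm and 28.6 in ES cells (log2 ratio -1.30, interval -3.30 to 0.16). Ndufs1, the largest iron-sulfur subunit of complex I, had 10.9 fragments in sperm and 40.0 in ES cells (log2 ratio -1.21, interval upper bound -4.5e-04). Its start site lies only 8 bp from that of Eef1b2, a translation elongation factor subunit, and the 2 promoters cannot be told apart here. Cox5b, a zinc-binding subunit of complex IV, had 13.5 fragments in sperm and 46.4 in ES cells (log2 ratio -1.14). In the 200 bp upstream and the 300 bp downstream of the Cox5b start site sperm had no fragment, against 5.14 and 1.82 fragments in ES cells.

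At the other end, among general members with at least 20 fragments, 5 of the 10 with the highest ratio were Mrpl genes, which are the largest family. Mrpl41, with fewer fragments, had a log2 ratio of 0.90. Mrpl19 (start site at position 81915943 of chromosome 6) had 27.1 fragments in sperm and 11.8 in ES cells, a log2 ratio of 1.71 (interval 0.32 to 3.54). Mrpl35 (start site at position 71773778 of chromosome 6) had 40.9 fragments in sperm and 21.8 in ES cells (log2 ratio 1.45, interval 0.38 to 2.72). At both of these promoters the 200 bp upstream of the start site held no fragment in ES cells, while sperm had 2.95 at Mrpl19 and 4.09 at Mrpl35. The intervals of Mrpl20 (23.8 fragments in sperm, 14.7 in ES cells), Mrpl44 (30.7 in sperm, 21.7 in ES cells) and Mrpl3 (37.0 in sperm, 29.5 in ES cells) include 0. Mrps35 had 20.5 fragments in sperm and 17.9 in ES cells, a log2 ratio of 0.77.

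Among the general respiratory subunits with high ratios, no interval lay wholly above 0. Ndufs8, an iron-sulfur core subunit of complex I, had 16.7 fragments in sperm and 10.7 in ES cells (log2 ratio 1.18, interval -0.43 to 3.16). Within 2000 bp of its start site the direction was opposite, at -0.71. Atp5a1, the alpha subunit of the ATP synthase head, had 21.2 fragments in sperm and 14 in ES cells (log2 ratio 1.14, interval -0.27 to 2.82). Cox7c had 39.8 fragments in sperm and 29.6 in ES cells (log2 ratio 0.99). Ndufb9, an accessory subunit of complex I whose start site lies 79 bp from that of Tatdn1, had 38.9 fragments in sperm and 31.0 in ES cells (log2 ratio 0.89).

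The promoters with the most fragments of their family had modest ratios. Mrpl13 had 36.9 fragments in sperm and 92.5 in ES cells, the highest ES cell value of any general member (log2 ratio -0.73). The Mrpl13 start site lies 95 bp from that of Mtbp. Mrps33 had 28.6 in sperm and 58.3 in ES cells (log2 ratio -0.43), and Ndufc2, of complex I, had 29.7 in sperm and 68.6 in ES cells (log2 ratio -0.61). Uqcrb, of complex III, whose start site lies 64 bp from that of Gm10767, had 41.9 in sperm and 48.6 in ES cells (log2 ratio 0.37). Atp5j2, of the membrane part of ATP synthase, had 34.9 in sperm and 53.5 in ES cells (log2 ratio -0.03). Cox6b1 had the most among the Cox genes and is described with its paralog below.

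The restricted paralogs had no deep depletion at the start site, and their mean values were above those of the general members in both libraries. Their mean level was 1.27 in sperm (interval 1.08 to 1.48) and 1.17 in ES cells (0.982 to 1.39), where the interval includes the 1.10 of the general members. The 200 bp upstream averaged 0.775 of the flanks in sperm (0.406 to 1.36) and 0.803 in ES cells (0.406 to 1.45), and these intervals overlap those of the general members. The downstream window averaged 0.569 in sperm (0.308 to 0.974) and 0.758 in ES cells (0.430 to 1.25). Single paralogs differed. Cox6b2 was nearly empty, with 0.5 fragments upstream in sperm and 0.227 in ES cells, and 0.136 downstream in sperm and 0.0 in ES cells. Cox4i2 held 0.0455 upstream in sperm and 0.682 in ES cells, whereas Cox8b held 6.09 in sperm and 2.64 in ES cells. No restricted paralog is in the high-CpG class, where 4 are intermediate-CpG, 2 low-CpG and 2 unclassed in the tables used. Intermediate-CpG genes as a whole had similar values, with 0.712 upstream in sperm and 0.825 in ES cells. Their level was 1.32 in sperm and 1.23 in ES cells, and that of low-CpG genes was 1.59 in sperm and 1.28 in ES cells. The mean levels of the restricted paralogs were thus not above those of these classes. The pooled share of the 8 was 0.11 on the log2 scale, sperm over ES cells (interval -0.23 to 0.45).

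Upstream sequences of 3 pairs are printed to show their CpG content. Each is the 200 bases before the RefSeq start of the gene (build GRCm38.p6), printed 5′ to 3′ on the gene's strand, with CpG dinucleotides in capitals. The positions are chr7:4753095-4753294 on the minus strand for Cox6b2, chr7:30626115-30626314 on the minus strand for Cox6b1, chr7:30183971-30184170 on the plus strand for Cox7a1, chr9:79759854-79760053 on the minus strand for Cox7a2, chr5:71548206-71548405 on the minus strand for Cox7b2 and chrX:106015500-106015699 on the plus strand for Cox7b.
Cox6b2: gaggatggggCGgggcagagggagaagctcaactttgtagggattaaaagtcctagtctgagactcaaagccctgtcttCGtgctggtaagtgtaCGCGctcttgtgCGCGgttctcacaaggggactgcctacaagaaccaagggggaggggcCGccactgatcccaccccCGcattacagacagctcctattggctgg
Cox6b1: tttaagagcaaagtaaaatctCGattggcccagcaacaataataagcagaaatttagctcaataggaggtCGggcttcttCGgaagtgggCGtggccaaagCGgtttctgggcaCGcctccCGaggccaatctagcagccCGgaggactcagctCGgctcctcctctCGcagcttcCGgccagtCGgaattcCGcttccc
Cox7a1: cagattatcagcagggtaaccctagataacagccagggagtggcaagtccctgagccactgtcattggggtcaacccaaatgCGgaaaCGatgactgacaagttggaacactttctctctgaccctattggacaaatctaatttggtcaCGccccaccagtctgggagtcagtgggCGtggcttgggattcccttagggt
Cox7a2: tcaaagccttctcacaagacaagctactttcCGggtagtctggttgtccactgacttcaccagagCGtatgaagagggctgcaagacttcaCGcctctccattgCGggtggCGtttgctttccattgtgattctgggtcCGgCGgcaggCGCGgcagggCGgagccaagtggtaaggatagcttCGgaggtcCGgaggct
Cox7b2: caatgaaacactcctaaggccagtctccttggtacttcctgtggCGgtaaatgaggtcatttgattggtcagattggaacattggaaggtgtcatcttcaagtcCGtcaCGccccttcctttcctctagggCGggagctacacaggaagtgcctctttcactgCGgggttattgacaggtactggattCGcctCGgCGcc
Cox7b: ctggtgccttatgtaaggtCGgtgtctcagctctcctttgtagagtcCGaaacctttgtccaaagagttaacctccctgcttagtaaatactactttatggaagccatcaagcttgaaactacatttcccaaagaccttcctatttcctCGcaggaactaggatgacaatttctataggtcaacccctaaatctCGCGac
The stretch holds 8 CpG in Cox6b2 and 13 in Cox6b1, and 4 in Cox7a1 and 12 in Cox7a2. In the third pair the order is turned round, with 8 CpG in Cox7b2 and 5 in Cox7b, an X-linked gene that the authors classed as intermediate-CpG. Over the whole 300-base promoter of the table, the 4 restricted paralogs with a sequence had a median of 8.5 CpG, against 20.0 in 127 general members. Whether the RefSeq start and the deposited mm9 start site are the same base was not tested.

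Of the testis forms of complex IV subunits, Cox7b2 and Cox8c had levels of 2.45 and 1.56 times the average promoter in sperm, and Cox6b2 had 0.989. Intermediate-CpG genes, the class of Cox7b2 and Cox8c, averaged 1.32 in sperm. Cox7b2 (start site at position 71939444 of chromosome 5, mm9) had 54.3 fragments in sperm and 33.0 in ES cells (log2 ratio 1.28, interval 0.39 to 2.29), the highest sperm value of all 156 members. Its general counterpart Cox7b had 16.8 in sperm and 22.3 in ES cells (log2 ratio 0.19, interval -1.19 to 1.56). Cox6b2 had 21.9 fragments in sperm and 24.0 in ES cells (log2 ratio 0.45, interval -0.79 to 1.73), and Cox6b1 had 32.4 in sperm and 55.3 in ES cells (log2 ratio -0.18, interval -1.09 to 0.69). Cox8c had 34.5 fragments in sperm and 50.0 in ES cells, a log2 ratio of 0.06 that its interval does not set apart from 0 (-0.85 to 0.95). So 1 of the 3 testis forms had an interval above 0, beside 6.1% of all genes and 211 of 2857 intermediate-CpG genes with at least 20 fragments.

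The heart and skeletal muscle forms showed no common direction. Cox6a2 (start site at position 135349880 of chromosome 7) had 40.1 fragments in sperm and 21.8 in ES cells (log2 ratio 1.43, interval 0.35 to 2.69), whereas Cox6a1 had 17.7 in sperm and 22.1 in ES cells (log2 ratio 0.27). Cox7a1 had 16.7 fragments in sperm and 34.9 in ES cells (log2 ratio -0.45), and Cox7a2 had 26.8 in sperm and 36.9 in ES cells (log2 ratio 0.13). In the 300 bp downstream of the Cox7a1 start site there were 0.955 fragments in sperm and 10.4 in ES cells. Cox8b had 26.3 fragments in sperm and 38.8 in ES cells (log2 ratio 0.03), and Cox8a had 21.0 in sperm and 56.9 in ES cells (log2 ratio -0.82, interval -1.90 to 0.12).

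The paralogs known to be induced by low oxygen both had lower shares in sperm. Ndufa4l2 (start site at position 126951994 of chromosome 10) had 12.8 fragments in sperm and 57.5 in ES cells (log2 ratio -1.51, interval -2.88 to -0.45), the lowest sperm value and the highest ES cell value among the 8 restricted paralogs. Its counterpart Ndufa4, named for complex I and known as a subunit of complex IV, had 22.4 in sperm and 32.3 in ES cells (log2 ratio 0.07). Cox4i2, the lung form, had 17.6 fragments in sperm and 49.7 in ES cells (log2 ratio -0.87, interval -2.06 to 0.15), and Cox4i1 had 15.6 in sperm and 18.2 in ES cells (log2 ratio 0.36). The Cox4i1 start site lies 177 bp from that of Emc8. Of the 8 restricted paralogs, 5 had a higher share in sperm and 3 a lower one (37.5%). The share with a lower value was 54.1% over all genes and 48.3% over intermediate-CpG genes.

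**Figure D3:**
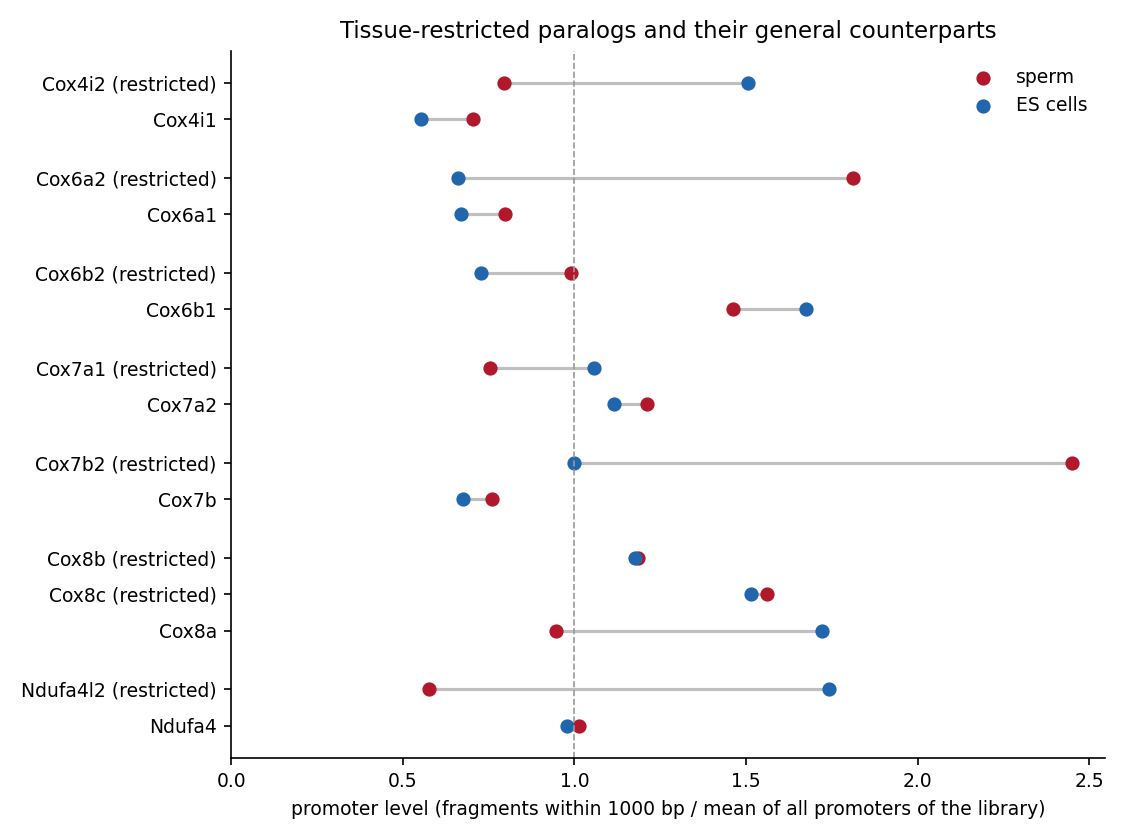
Promoter level of each tissue-restricted paralog and, under it, its general counterpart, as fragments within 1000 bp of the start site relative to the library's average promoter, in standard sperm (red) and ES cells (blue). Cox7b2 (2.45 in sperm, 1.00 in ES cells) and Ndufa4l2 (0.577 in sperm, 1.74 in ES cells) have the largest differences in level in opposite directions, and the Ndufa4 and Cox8b points nearly coincide.

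The promoter letters of the general members differed from those of other high-CpG genes. Both strands of the 300-base promoters were searched for GCATGCG (Nrf1), CCGGAAG (ETS factors), GATGGCG (Yy1) and GGGCGG (Sp1), and none of the 4 contains another. GCATGCG was found in 16 of 127 general members (12.6%), against 3.64% of all promoters in the table and 7.28% of high-CpG genes. CCGGAAG was found in 36 (28.3%), against 9.12% of all promoters and 18.7% of high-CpG genes. GATGGCG was found in 15 (11.8%), against 3.66% of all promoters and 7.06% of high-CpG genes. GGGCGG went the other way, with 56 members (44.1%), 35.9% of all promoters and 70.0% of high-CpG genes. ETS letters stood in 14 of 43 Mrpl and 8 of 23 Mrps promoters but in 4 of 32 Nduf promoters, and Nrf1 letters stood in 0 of the 23 Mrps promoters.

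A pair of Mrpl promoters from opposite ends of the sperm to ES cell ratio are printed in the same way, Mrpl14 (chr17:45686149-45686348 on the plus strand) and Mrpl35 (chr6:71823785-71823984 on the minus strand).
Mrpl14: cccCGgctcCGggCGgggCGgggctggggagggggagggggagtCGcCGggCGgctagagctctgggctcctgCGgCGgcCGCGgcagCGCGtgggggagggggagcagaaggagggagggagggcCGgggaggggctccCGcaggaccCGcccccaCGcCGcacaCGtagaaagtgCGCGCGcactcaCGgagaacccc
Mrpl35: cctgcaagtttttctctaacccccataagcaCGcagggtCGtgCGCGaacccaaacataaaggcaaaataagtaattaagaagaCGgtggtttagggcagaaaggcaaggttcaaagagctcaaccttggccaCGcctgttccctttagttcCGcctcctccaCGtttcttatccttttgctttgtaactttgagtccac
The 200 bases hold 23 CpG and 4 GGGCGG matches (overlapping ones counted) in Mrpl14, the member with the lowest ratio, and 8 CpG and no match to any of the 4 motifs in Mrpl35, the second highest. The 300-base promoter of Mrpl35 holds a GATGGCG match that is not wholly within the printed bases. Across the 127 general members with a sequence, the Spearman correlation between CpG in the promoter and the log2 ratio was -0.24, all from the same 2 libraries. The 16 members with Nrf1 letters had a median log2 ratio of 0.18 and the 111 without had -0.18. For ETS letters the medians were -0.19 in 36 members with and -0.07 in 91 members without. For Yy1 letters they were -0.18 in 15 with and -0.16 in 112 without. For Sp1 letters they were -0.18 in 56 with and -0.09 in 71 without.

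Many members share their promoter region with another gene. Of the 156, 47 (30.1%) had another gene's start site within 1000 bp, against 12.2% of all genes and 15.3% of high-CpG genes. The median log2 ratio was -0.18 in these 47 and -0.09 in the other 109. In 3 cases both genes are members, namely Mrpl46 and Mrps11, with start sites 41 bp apart on chromosome 7, and Mrpl47 and Ndufb5, with start sites 307 bp apart on chromosome 3, and Ndufs5, 25 bp from a second deposited start site of Ndufs5-ps on chromosome 4. Mrpl46 had 30.4 fragments in sperm and 41.5 in ES cells, and Mrps11, whose window is nearly the same DNA, had 30.8 in sperm and 42.6 in ES cells. The pseudogene Ndufs5-ps is described by its other start site, on chromosome 16, with 45.3 fragments in sperm and 49.6 in ES cells. The sources used here do not say how reads that match several places were treated, so values of members with near-identical copies are uncertain.

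Genes that work with these members but have other names gave a mixed picture. Of 32 assembly factors of the complexes, 16 had a lower and 16 a higher share in sperm, beside lower shares at 54.1% of all genes and 65.7% of high-CpG genes. Surf1, which helps build complex IV, had 7.91 fragments in sperm and 39.0 in ES cells (log2 ratio -1.59). Cox11, a copper chaperone of complex IV, had 25.6 in sperm and 13.2 in ES cells (log2 ratio 1.48). Of 6 genes of complex II and cytochrome c, 4 had a lower share in sperm, with Sdhb, the iron-sulfur subunit, lowest at 11.5 fragments in sperm and 47.1 in ES cells (log2 ratio -1.37). Cyct, the testis cytochrome c, had 47.9 fragments in sperm and 40.0 in ES cells (log2 ratio 0.83, interval -0.04 to 1.76). Cycs, the somatic form, had 21.9 in sperm and 20.7 in ES cells (log2 ratio 0.65, interval -0.62 to 2.03).

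No other factor of mitochondrial gene expression in the lists with at least 20 fragments was past 2-fold. The lists are short, and over all genes 8.58% were past 2-fold lower and 6.52% past 2-fold higher. Of 14 further genes of mitochondrial translation, 7 had a lower and 7 a higher share in sperm, with a median of -0.04. Lower shares were found at 54.1% of all genes and 65.7% of high-CpG genes. Of 15 genes for mitochondrial DNA maintenance and nuclear regulators, 10 stood lower in sperm. Their median log2 ratio was -0.31, below the -0.07 of all genes and the -0.25 of high-CpG genes, and 14 had the 20 fragments. Their pooled log2 ratio was -0.11 (interval -0.40 to 0.18), above the pooled -0.24 of high-CpG genes. Gabpa, an ETS factor that binds promoters of respiratory genes, had 10.2 fragments in sperm and 27.2 in ES cells (log2 ratio -0.75, interval -2.40 to 0.62). The Gabpa start site lies 451 bp from that of the member Atp5j, so part of the window belongs to both genes. Cytosolic ribosomal protein genes (82) had a pooled log2 ratio of -0.15 (interval -0.27 to -0.02), near that of the general members. Proteasome subunit genes (39) had -0.35 (-0.51 to -0.19), and this interval overlaps that of the general members at one end.

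In the sperm titrations single promoters held too few fragments to be described alone, so the general members were pooled. Their level in the unspun libraries was 0.965 at 0.5 units (interval 0.795 to 1.16), 0.805 at 2 units (0.651 to 0.985), 1.01 at 10 units (0.818 to 1.23) and 0.993 at 50 units (0.807 to 1.21). These values have no common direction, and the share at the highest dose was 1.03 times that at the lowest (interval 0.776 to 1.36), against 1.19 times (1.15 to 1.22) for high-CpG genes. Per promoter, between 73 and 94 of the 148 general members had any signal in an unspun library. Relative to standard sperm, the log2 ratio of the unspun share was -0.05 at 0.5 units, -0.31 at 2 units, 0.01 at 10 units and -0.01 at 50 units, and the interval excludes 0 at 2 units alone. High-CpG genes had higher shares in all 4 unspun libraries than in standard sperm, with log2 ratios of 0.30 at 0.5 units to 0.55 at 50 units.

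The supernatant and pellet tables hold 141 of the 148 general members. Levels in these series are relative to 16482 start sites, not the 23456 used for unspun sperm, so levels are not directly comparable between the 2 kinds of table. In the supernatant series the general members' level was 1.15 at 1 unit (0.910 to 1.42), 1.04 at 5 units (0.779 to 1.36), 0.882 at 20 units (0.695 to 1.10) and 0.854 at 100 units (0.700 to 1.03). The share at 100 units was 0.745 times that at 1 unit (0.553 to 1.01) and 0.820 times that at 5 units, whereas high-CpG genes had 1.16 times (1.12 to 1.20). Genes of the respiratory chain had 0.651 times (0.429 to 0.990) and mitochondrial ribosome genes 0.868 times (0.557 to 1.37). In the pellet series the level was 0.965 at 1 unit, 1.16 at 5 units, 0.884 at 20 units and 0.989 at 100 units, on 18.7 to 100.2 fragments. The log2 ratio of supernatant to pellet was 0.25 at 1 unit, -0.15 at 5 units, -0.00 at 20 units and -0.21 at 100 units, and every interval includes 0. Isolated signal covered only 1 or 2 bins in 84.6% of cases in the 1-unit supernatant and 87.4% in the 1-unit pellet, against 3.66% to 7.13% at the other doses, and whether fragment lengths differ between these libraries was not tested.

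The downstream window of the general members was fuller at the highest than at the lowest dose in all 3 series. In the unspun libraries the 300 bp downstream of general members averaged 0.438 of the flanks at 0.5 units (interval 0.210 to 0.815), 0.884 at 2 units, 1.15 at 10 units and 1.56 at 50 units (0.914 to 2.55). High-CpG genes followed the same order with 0.562, 0.989, 1.12 and 1.91. The ratio of the highest to the lowest dose was 3.57 for general members (1.62 to 7.85) and 3.39 for high-CpG genes (3.10 to 3.72). For high-CpG genes it was 2.70 in the supernatant and 2.71 in the pellet series. For all genes it was 2.21 in the unspun, 2.09 in the supernatant and 2.40 in the pellet series. In the supernatant series the general members' ratio was 0.260 at 1 unit and 1.24 at 100 units, 4.75 times as high (1.43 to 15.7), but 1.25 at 5 units and 0.502 at 20 units. In the pellet series it was 0.404 at 1 unit and 2.20 at 100 units, 5.45 times as high (1.19 to 25.1), with 2.01 at 5 units and 1.89 at 20 units. The lowest doses rest on 3.38 fragments in the supernatant and 1.94 in the pellet, and against the 5-unit library the ratio at 100 units was 0.984 times as high in the supernatant and 1.10 times in the pellet. The window that held 0.245 of the flanks in the standard sperm library was thus as full as the flanks or fuller at the highest dose of each series.

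**Figure D4:**
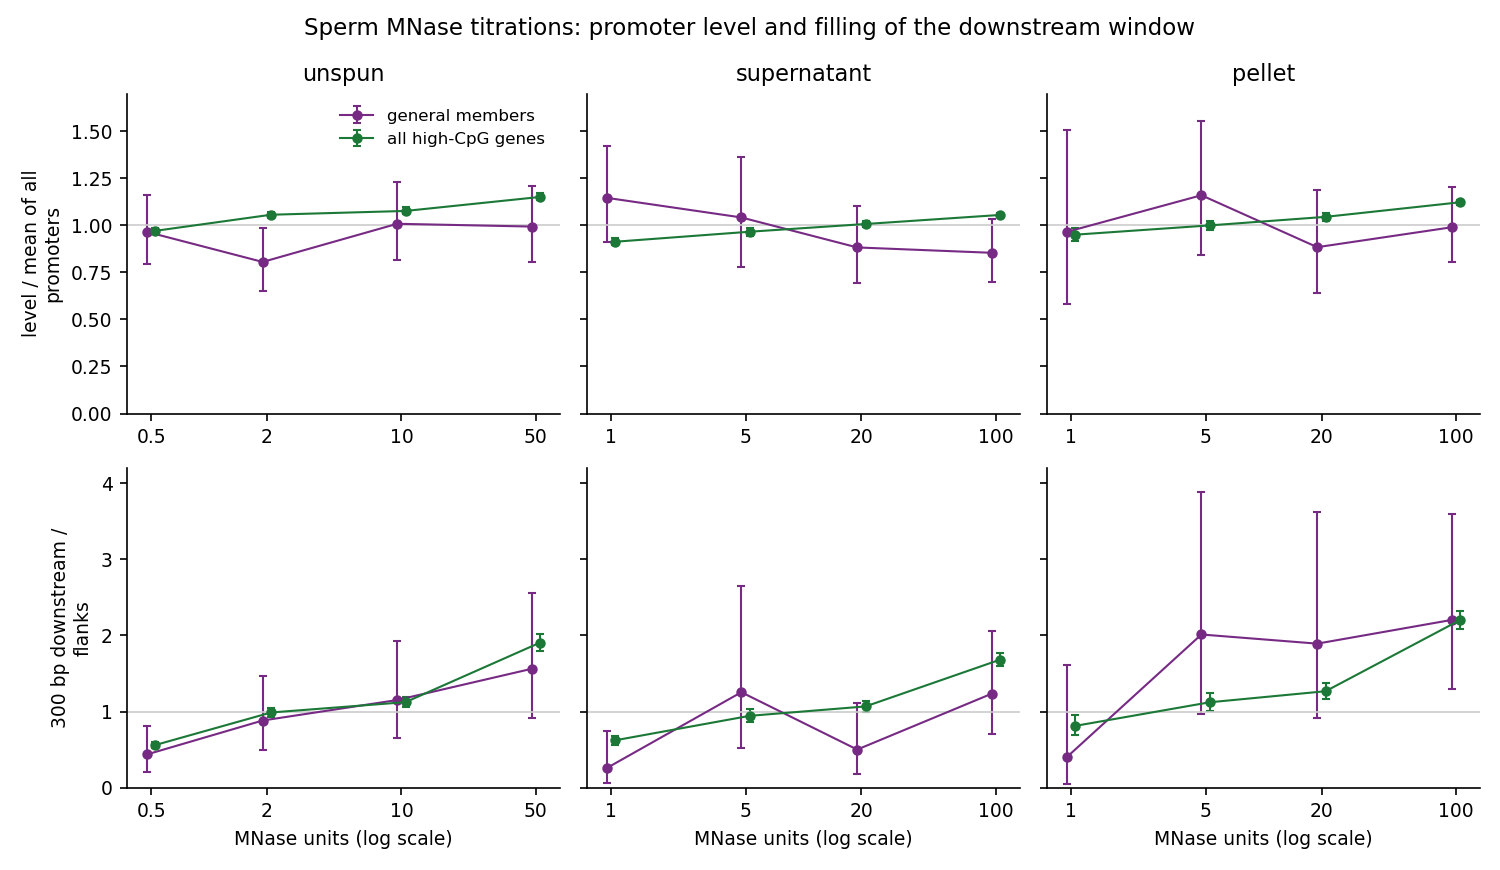
General members (purple) and all high-CpG genes (green) in the 3 sperm titrations by MNase units (log scale), with 95% exact binomial intervals as bars. The upper row shows the promoter level relative to the mean of all promoters of the same kind of table, with 148 general members in the unspun and 141 in the other series. The lower row shows the mean of the 300 bp downstream relative to the flanks. The downstream ratio of the general members is 0.438 at 0.5 units and 1.56 at 50 units in the unspun series, while their level stays between 0.805 and 1.01 there.

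The restricted paralogs could not be followed through the titrations. All 8 together held 6.38 to 8.23 stacks in an unspun library. The 6 present in the count tables held at most 4.63 fragments in a supernatant and at most 1.12 in a pellet library. Summed over the 4 unspun doses, Ndufa4l2 had the most with 6.32 fragments, followed by Cox7b2 with 4.82. The order of the 2 genes in standard sperm was the opposite, with 54.3 fragments at Cox7b2 and 12.8 at Ndufa4l2, and the unspun sums are too small to set them apart.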

How the data were processed

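The authors deposited, for each library, a table with 1 row per start site and 200 bins. For ES cells, standard sperm and unspun sperm the deposited values are a signal, the unscaled pileup of fragments in 20 bp bins. For the supernatant and pellet series they are counts per bin, not scaled to depth, with CpG classes per the file headers. The submitters' processing notes name Bowtie, SAMtools 0.1.16 and the build mm9. The sources used here give neither read filters nor the handling of duplicates. Windows of neighbouring start sites held equal values in 94.6% of shared bins when count bins were read as 50 bp wide and in 6.73% at the 20 bp of the header, so 50 bp were used.

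Repeated positions were taken once, and 628 start sites with no signal in either the ES cell or the standard sperm library were left out, which left 23456. Symbols and promoter sequences came from RefSeq tables (GRCm38.p6), and 27264 of 28015 rows had a symbol. Where a gene had several start sites (5 members), that with the highest mean share was used. Log2 ratios compare shares of all promoter fragments, after 1 fragment was added for single genes. Counts of genes past 2-fold needed 20 fragments in the 2 libraries together. Of 17 samples, 3 (unspun ES cells, sonicated sperm input, sperm histone H3 immunoprecipitation) were not analysed here. Units of MNase follow the title and units field, which differ from the description for the 5-unit and 20-unit pellets. Alternatives were other windows, scaling, pseudocount, minimum, flanks, doses and start sites. The interval method was tested on simulated data. Genes named are all restricted paralogs with their counterparts, the 10 lowest and 10 highest ratios of the other members with at least 20 fragments, and the member with the most fragments of each family. The members, the pathway lists and the rules were chosen with earlier results of these data known. Python packages were numpy 2.4.6, pandas 2.3.3 and SciPy 1.17.1.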

Additional observations from a re-analysis of the deposited data

How the results depend on the processing

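No paired analysis was possible because every group held 1 library. Of 80 alternative values of 18 results, 69 stayed within the counting interval of the reported value (counts within 1.5 times of it), 6 moved outside and 5 reversed. Of the 69, 8 had the other direction, all for values whose interval includes equality: the restricted paralogs' share (-0.08 with 200 bp and -0.02 with 2000 bp to each side), the unspun dose ratio of the share (0.822 without members that have a neighbour within 1000 bp, 0.868 scaled to high-CpG promoters) and the pellet one (0.739 and 0.865 in the same order, 0.853 against the second lowest dose and 0.916 for the third). With 200 bp to each side in place of 1000 bp, the log2 ratio of the general members' share was 0.10 and their median 0.27 (0.20 for all genes and 0.13 for high-CpG genes). The 1 fragment added pulls the medians of this window towards 0.67, the score of a promoter with no fragment in either library. In this window 0 members were past 2-fold lower or past 2-fold higher in sperm, since 0 members reach 20 fragments there. Scaled to high-CpG promoters, the pooled value was 0.10 and the median 0.12, and 6 members were past 2-fold lower. The count past 2-fold lower was 4 with 2000 bp to each side and 6 with 5 fragments added. Set against the second lowest dose in place of the lowest, the downstream ratio at the highest dose was 0.984 times in the supernatant series and 1.10 times in the pellet series, so the differences given for these series rest on their 1-unit libraries. Without the pseudogene, an alternative chosen after seeing the data, the pooled log2 ratio was -0.14 and the median -0.13. Depth limits single promoters: in the standard libraries 10 of 153 members had a counting interval below 0 and 4 one above it, and in the titrations single promoters were not compared.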
